A study of Mus musculus with 6 samples.

Results

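The genes described here encode the subunits, activators and assembly chaperones of the proteasome in mouse fetal liver. They were chosen by symbol as Psma, Psmb, Psmc, Psmd, Psme, Psmf or Psmg followed by a number, which took 48 of the 34542 genes counted. Pseudogenes and other names that begin with Psm were left out (5 genes). By role the 48 are 8 alpha-ring and 7 beta-ring genes of the 20S core, 3 immunoproteasome subunits, 1 thymoproteasome subunit, 6 ATPases and 11 other subunits of the 19S cap, 4 activators, 1 regulator and 7 assembly chaperones. Polyadenylated RNA was sequenced from 3 wild-type libraries (WT1, WT2, WT3) and 3 libraries from embryos without the microRNA locus miR-144/451 (KO4, KO5, KO6). All embryos were of the C57BL/6J strain, each RNA preparation used 5000000 fetal liver cells, and no embryonic age, treatment or sorting is named. No Cre or cell-type promoter is named for the KO. Nothing tells whether each library held the RNA of 1 embryo or of several. The p-values below therefore describe the spread among the libraries, part of which may be technical.

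The proteasome is a barrel-shaped protease that degrades proteins tagged with ubiquitin. The alpha rings of its 20S core form the gate, and the beta rings carry the catalytic sites. The 19S cap binds ubiquitin chains, unfolds the substrate with its ATPases and opens the gate. Red cell precursors use it to clear proteins as they mature, and in immune cells interferon replaces the 3 catalytic subunits with immunoproteasome subunits. MicroRNAs lower messenger RNAs that pair with their seed, the bases from position 2 to 8, mostly in the 3′ untranslated region (UTR).

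The 3 mature microRNAs of the deleted locus were read from the RefSeq table of build GRCm38.p6, where they lie at chr11:78073010-78073207, plus strand. They are shown 5′ to 3′ with the seed in capitals, because a member with a matching site is a possible direct target.
miR-451a: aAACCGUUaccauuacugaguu
miR-144-3p: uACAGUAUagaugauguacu
miR-144-5p: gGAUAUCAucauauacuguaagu
Sites were searched in the longest 3′ UTR of a protein-coding transcript of each gene (GENCODE, GRCm38). The 4 member sites below are given with up to 10 bases on each side and the match in capitals. Psma8 also had a site for miR-144-3p, whose sequence is not shown.
Psmb8, miR-451a: ataaaagaaaAACGGTTAtacatgtc
Psmd11, miR-451a: caaatgtacaAACGGTTcttgctgacc
Psmd2, miR-144-3p: tgaggggtggATACTGTtccagatctt
Psma3, miR-144-5p: taaaaataaaTGATATCtacttacaca

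Sites of miR-451a were thus present in 2 of 48 members (4.17%) and in 1.70% of the 20303 genes with a 3′ UTR. Sites of miR-144-3p were present in 2 members (4.17%, against 12.1%) and of miR-144-5p in 1 (2.08%, against 6.22%). The members' UTRs were short, with a median of 295 bases against 989 over all genes. Psmb8 encodes the inducible chymotrypsin-like subunit beta5i and lies at chr17:34197721-34201454 (plus strand, with Gm20496 on the other strand). Its site starts at base 173 of a UTR of 188 bases. Psmd11, a scaffold subunit of the 19S lid, lies at chr11:80428615-80473248, and its site starts at base 1464 of 1539. Psmd2 (chr16:20651652-20663414) is a scaffold subunit of the 19S base that docks substrate shuttles. Its site starts at base 152 of 240. In the KO, the log2 change of the gene count was -0.19 for Psmb8, 0.08 for Psmd11, 0.13 for Psmd2, 0.03 for Psma3 and 0.05 for Psma8. None of these 5 passed the test described next.

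The libraries held 24659978 to 44700229 counts each, of which the members took 0.571% to 0.701%. The genes of the deleted microRNAs served as a check of the labels. Counts of Mir451 were 323, 446 and 418 across WT1 to WT3, against 3, 2 and 4 across KO4 to KO6. Those of Mir144 were 51, 47 and 29, against 1, 1 and 0. Hepatocyte markers were uneven within both groups: the 14 markers summed to 14915, 56161 and 8749 CPM (counts scaled to a common library size) in WT1, WT2 and WT3. In KO4, KO5 and KO6 they summed to 12834, 20131 and 45892 CPM, so WT2 and KO6 were the libraries richest in hepatocyte transcripts. The 9 erythroid markers in the table, which check the labelled tissue as a blood-forming one, summed to 19954 to 27513 CPM in WT and 14673 to 17341 CPM in KO. In bulk RNA, fewer cells of a type and less RNA per cell cannot be told apart.

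Proteasome transcripts differed little between WT and KO. Of the 47 members tested, 0 were higher and 0 lower in KO at an adjusted p under 0.05 (edgeR's quasi-likelihood test with Benjamini-Hochberg adjustment over all genes), where 3.28% of all 15105 genes tested were called (1.83% higher and 1.45% lower). Before adjustment, 6 of 47 had p under 0.05 in the same test, 4 higher and 2 lower, against 16.6% of all genes (7.77% higher and 8.78% lower). DESeq2 called 2 members (Psmb4 and Psme3) where it called 8.66% of all genes, and limma-voom called 0 where it called 3.24%. Upper quartile scaling gave 1 (Psmb4), against 5.27%. The median log2 change was 0.01, against -0.03 over all genes, and 27 of 47 members lay above 0, against 44.8% of all genes. Without WT2 the median was -0.055, against 0.0080 over all genes, and 14 of 47 lay above 0, against 51.0%. The median size of the change without its sign was 0.09 on the log2 scale, against 0.17 over all genes. A change of at least 1.25-fold either way was fitted for 3 of 47 members (Psmb4, Psme3 and Psmf1), against 24.5% of all genes. All genes include many of low count, and no comparison with genes of like level was made. The part of count depth in these gaps was not tested. For 43 of 47 members the 95% interval of the change lay within 1.5-fold either way. The 4 whose interval reached further were Psmb8, Psmb9, Psme3 and Psmf1. The thymoproteasome subunit Psmb11 was not tested, with 1 or 2 counts in every library.

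**Figure D1:**
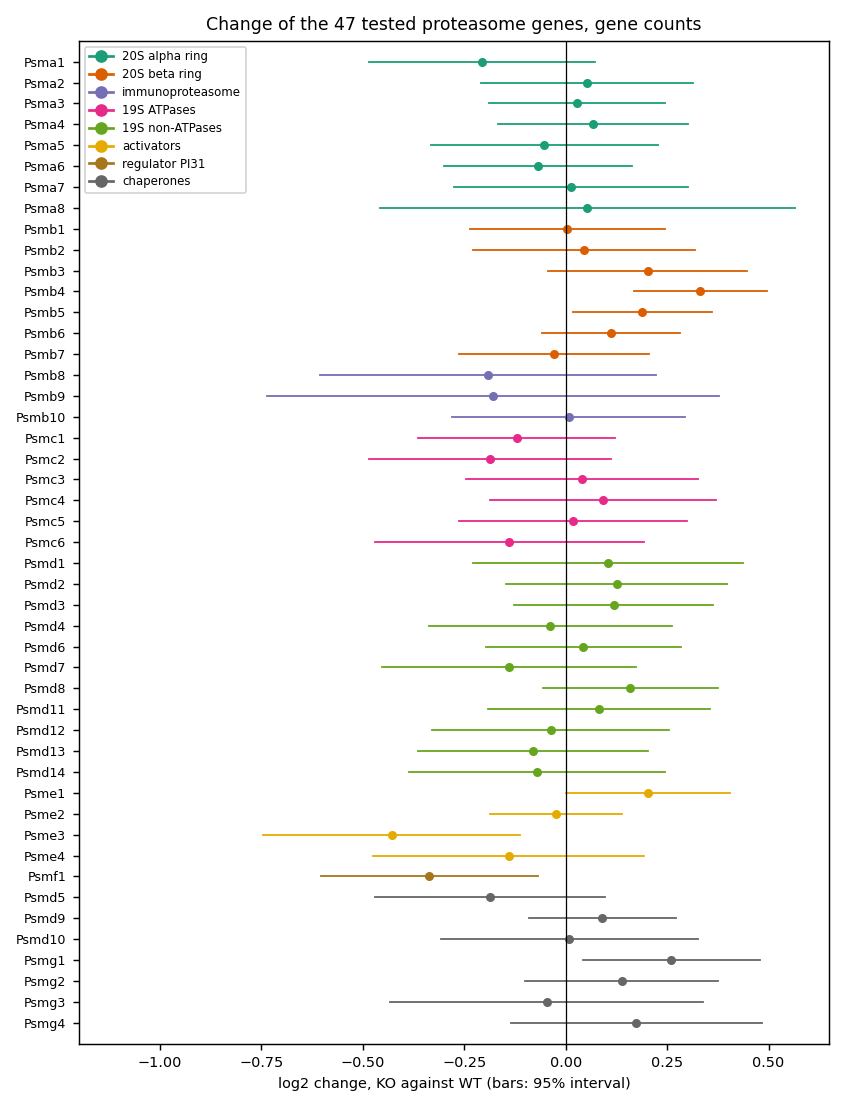
Log2 change of each tested member, KO against WT (x axis), one row per gene, with points for the fitted change and bars for the 95% interval, coloured by role. Most intervals cross 0 and the points lie between -0.43 (Psme3) and 0.33 (Psmb4).

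In the beta ring, 6 of 7 genes had a fitted change above 0 (median 0.11), against 44.8% of all genes, and none passed the test. Without WT2, Psmb3, Psmb4, Psmb5 and Psmb6 stayed above 0, while Psmb1 (-0.079) and Psmb2 (-0.055) fell below it. Psmb4, a structural beta subunit at chr3:94884093-94886961 (minus strand), had the lowest p of all members. Its levels were 135, 131 and 141 CPM in WT and 175, 172 and 165 CPM in KO, with every KO library above every WT library. The means were 136 ± 4.84 and 171 ± 5.19 CPM (SD, n = 3 each). Its log2 change was 0.33 (SE 0.07, 95% interval 0.17 to 0.50), with an adjusted p of 0.0584 by edgeR's quasi-likelihood test. That p lay on either side of the threshold depending on the setting: 5 of 13 alternatives called Psmb4, with adjusted p from 1.9e-04 to 0.228 and log2 changes from 0.30 to 0.37. Psmb5, the constitutive chymotrypsin-like subunit, stood at 51.0, 47.1 and 50.6 CPM in WT and 58.4, 55.8 and 55.1 CPM in KO. The groups did not overlap either, but the change of 0.19 (SE 0.07) had an adjusted p of 0.254. Psmb6, the constitutive caspase-like subunit, had 113, 108 and 109.8 CPM in WT and 127, 117 and 113 CPM in KO, a change of 0.11 whose 95% interval ran from -0.06 to 0.28. Psmb3 had a change of 0.20 with overlapping libraries (83.8 to 102 CPM in WT, 99.4 to 117 CPM in KO). Psmb7, the constitutive trypsin-like subunit, changed by -0.03 and Psmb1 by 0.0043.

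Across all 47 members the groups did not overlap for 8, with KO above WT for 6 and below for 2, against 22.7% of all genes tested (11.8% above and 10.9% below). The 6 were Psmb4, Psmb5, Psmb6, Psme1, Psmg1 and Psmg4, and the 2 were Psme3 and Psmf1. For Psmb6 the nearest libraries were almost equal, at 113.2 CPM in KO6 and 113.0 CPM in WT1. For Psme1 they were also close, at 70.2 CPM in KO4 and 69.4 CPM in WT2. In the alpha ring 0 of 8 genes separated the groups, and the median change was 0.02. Psma1 had the lowest p there, with 225, 174 and 220.0 CPM in WT and 183, 185 and 169 CPM in KO. WT2 lay within the KO range, and the change was -0.21 (SE 0.12; adjusted p = 0.467, edgeR). Without WT2 it was -0.31 with an adjusted p of 0.0399. Psma8, a testis form of an alpha subunit, was present at 2.78 ± 0.32 CPM in WT and 2.88 ± 0.59 CPM in KO.

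No gene of the 19S cap passed the test, against 3.28% of all genes. The 6 ATPases, which form the unfolding ring, had a median change of -0.05 and a range from -0.19 (Psmc2) to 0.09 (Psmc4). The 11 other cap subunits had a median of 0.04 and a range from -0.14 (Psmd7) to 0.16 (Psmd8). None of these 17 separated the groups, against 22.7% of all genes tested. Psmd8, a lid subunit, had 137, 114 and 122 CPM in WT and 143.9, 140.2 and 132 CPM in KO, with an adjusted p of 0.467 by edgeR's quasi-likelihood test. Psmd2, the cap gene of highest level per kilobase of merged exons, had 413, 335 and 407 CPM in WT and 433, 436 and 391 CPM in KO. That rank depends on the length used. By median transcript length, Psmc3 (154) and Psmd4 (133) lay above Psmd2 (130 CPM per kilobase) in WT.

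The activators did not move together. Psme3 encodes PA28 gamma, a nuclear activator that opens the core independently of ubiquitin, and lies at chr11:101316213-101323537 (plus strand). It had 682, 515 and 609 CPM in WT and 459.9, 472 and 409 CPM in KO, the largest fitted change of any tested member. All KO libraries lay below all WT libraries. The means were 602 ± 83.6 and 447 ± 33.7 CPM, and the log2 change was -0.43 (SE 0.13, 95% interval -0.74 to -0.11; adjusted p = 0.165, edgeR). Psme3 was called in 4 of 13 alternatives, and without WT2 its change was -0.53. Psme1, PA28 alpha, had 60.4, 69.4 and 61.7 CPM in WT and 70.2, 72.2 and 77.9 CPM in KO. The log2 change was 0.20 (adjusted p = 0.302, edgeR). Its partner Psme2, PA28 beta, stayed between 54.8 and 58.6 CPM in all libraries. Psme2 has a near-identical pseudogene in the table (Psme2b-ps), so its counts are uncertain, and Psme1 overlaps Emc9 on the other strand. Psme4, PA200, had a change of -0.14 with overlapping libraries.

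Psmf1 encodes PI31, a regulator that binds the core and is linked to proteasome transport, and lies at chr2:151715812-151744186 (minus strand). It had 103, 84.1 and 102 CPM in WT and 83.7, 75.6 and 69.8 CPM in KO. The lowest WT and the highest KO library were nearly equal. The change was -0.34 (SE 0.11, 95% interval -0.60 to -0.07), with an adjusted p of 0.197 by edgeR's quasi-likelihood test and calls in 3 of 13 alternatives.

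The assembly chaperones pair and dock subunits and are not part of the finished particle. Their median change was 0.09, and 5 of 7 lay above 0, against 44.8% of all genes. Without WT2 the change of Psmd10 went from 0.0093 to -0.090. Psmg1 had 21.1, 20.5 and 23.0 CPM in WT and 25.9, 26.0 and 25.4 CPM in KO, all KO above all WT. Its log2 change was 0.26 (SE 0.09; adjusted p = 0.220, edgeR). Its partner in alpha-ring assembly, Psmg2, had 44.1, 37.4 and 43.2 CPM in WT and 49.1, 45.2 and 42.8 CPM in KO, with overlap. Psmg4 had 6.42 to 7.13 CPM in WT and 7.34 to 8.11 CPM in KO. Psmd5, which helps assemble the ATPase ring, had a change of -0.19 and overlapping groups. Without WT2 it was -0.30, with an adjusted p of 0.0372.

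**Figure D2:**
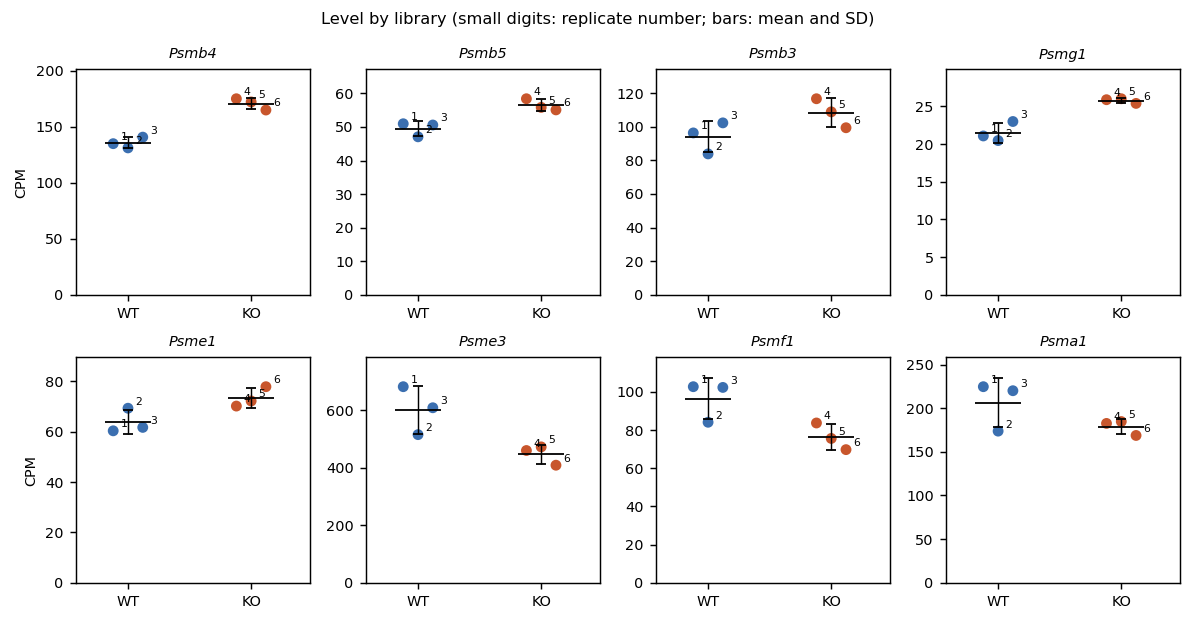
Level in CPM of single members in each library, WT in blue and KO in orange, with the group mean and SD. Psmb4 lies higher and Psme3 and Psmf1 lower in all 3 KO libraries than in the WT libraries.

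In the 3 settings that called the most members, the share was near that of all genes. A fit that carried the mean log2 level of the 14 hepatocyte markers as a term called 7 members, Psmb3, Psmb4, Psmb5, Psme1 and Psmg1 higher and Psme3 and Psmf1 lower. These were 14.9% of the members, against 17.0% of all genes in that fit. Without WT2 and KO6, 4 members were called (Psmb4 higher, Psma1, Psme3 and Psmf1 lower), 8.51% against 9.41% of all genes. Without WT2 alone there were 5, the same 4 and Psmd5, or 10.6% against 9.77%.

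Within each group the levels of most members followed the library. WT2 was the lowest WT library for 42 of 47 members, against 48.4% of all genes. KO6 was the lowest KO library for 43 of 47, against 38.0%, and both held for 42, against 32.2%. For all 31 constitutive 20S and 19S genes, Psma8 left out, both held. The summed level of these 31 was 5418, 4375 and 5388 CPM in WT and 5355, 5246 and 4757 CPM in KO. Relative to each gene's mean over the 6 libraries, their median was 105, 86.2 and 107% in WT and 106, 103 and 93.6% in KO. The hepatocyte markers ran the other way, with medians of 55.9, 219 and 31.6% in WT and 47.3, 78.1 and 167% in KO. The same figures for the 11 macrophage markers were 83.4, 167 and 70.8% in WT and 79.9, 94.2 and 106% in KO. Those for the 9 erythroid markers were 137, 98.6 and 120% in WT and 76.2, 89.0 and 74.1% in KO. Like the constitutive members, they were lowest in WT2 and in KO6, but unlike them they also lay lower in KO than in WT. The part of cell content in the differences between libraries was not tested.

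The 5 members that were not lowest in WT2 were Psmb8, Psmb9, Psmb10, Psme1 and Psme2, the inducible catalytic subunits and the PA28 alpha and beta activator. Psmb8, Psmb9, Psme1 and Psme2 were highest in WT2 among the WT libraries, and Psmb9, Psme1 and Psme2 were highest in KO6 among the KO libraries. The 13 genes of antigen presentation and interferon signalling, which are induced by interferon like these subunits, had medians of 101, 116 and 88.1% in WT and 85.8, 95.8 and 114% in KO. Of these 13, 0 were called, against 3.28% of all genes. B2m, the light chain of MHC class I, had 139, 217 and 111 CPM in WT and 114, 151 and 191 CPM in KO. H2-D1, a class I heavy chain, had 67.6 to 93.9 CPM in WT and 70.6 to 83.5 CPM in KO. In 3 of the 13, Isg15, Tapbp and Irf8, all KO libraries lay below all WT libraries, against 10.9% of all genes. Isg15, an interferon-induced ubiquitin-like modifier, had 9.82, 9.41 and 9.09 CPM in WT and 1.92, 2.62 and 4.70 CPM in KO (log2 difference -1.62, SE 0.33; adjusted p = 0.0580, edgeR). Tapbp, the peptide-loading chaperone tapasin, had a difference of -0.25 (adjusted p = 0.144, edgeR).

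**Figure D3:**
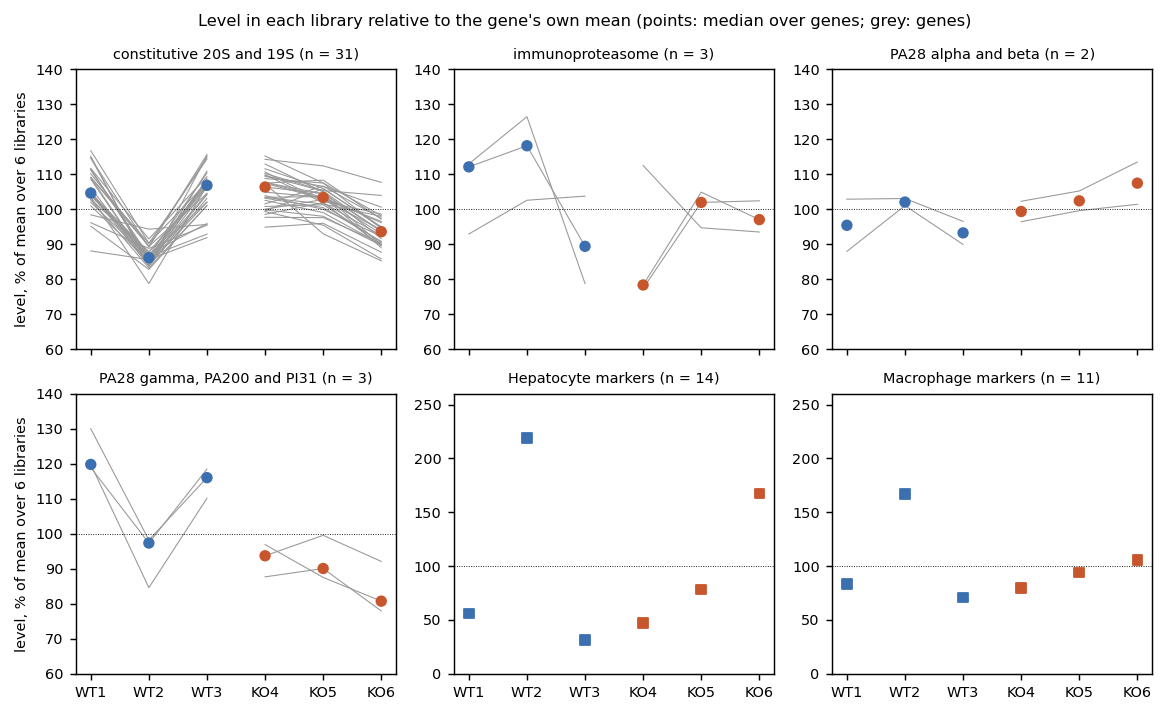
Level in each library as percent of the gene's mean over the 6 libraries (y axis), for groups of members and 2 marker lists. Coloured points are medians over genes, WT in blue and KO in orange, and grey lines join the values of 1 gene without implying an order of replicates. The 31 constitutive subunits dip in WT2 and KO6, where the hepatocyte markers peak.

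Per kilobase of exon, the levels of the constitutive 20S and 19S genes formed a band, whose width was not compared with that of other genes. In WT their levels ran from 30.8 (Psma3) to 166 CPM per kilobase (Psma1), a ratio of 5.40, with a median of 108. In KO the band was 31.4 to 159 CPM per kilobase, with a median of 101. Psme3 lay above the whole band in WT, at 226 ± 31.4 CPM per kilobase, and at 168 ± 12.7 in KO. Among the highest core genes, Psma1 (166 ± 22.7) and Psmb7 (163 ± 16.6) did not differ beyond their spread in WT. Psmb4 was at 115 ± 4.09 CPM per kilobase in WT and 144.3 ± 4.39 in KO. The chaperones lay at 12.3 (Psmg4) to 31.9 CPM per kilobase (Psmg2) in WT. Psmg2 (31.9 ± 2.80) was the single one above the lowest core gene, Psma3 (30.8 ± 3.09). Psmg2 lay above Psma3 in each WT library, but closely in WT3, at 33.2 against 33.1 CPM per kilobase. By median transcript length Psmg2 lay below Psma3, at 35.2 against 47.3 CPM per kilobase. The inducible subunits lay below the band, at 13.9 for Psmb10, 7.20 for Psmb8 and 3.43 for Psmb9 in WT. Psma8 was at 1.65 CPM per kilobase. Lengths were the merged exons of protein-coding transcripts, and the order depends on that choice: Psmb1 was at 45.2 CPM per kilobase by this length and at 88.1 by its median transcript length.

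**Figure D4:**
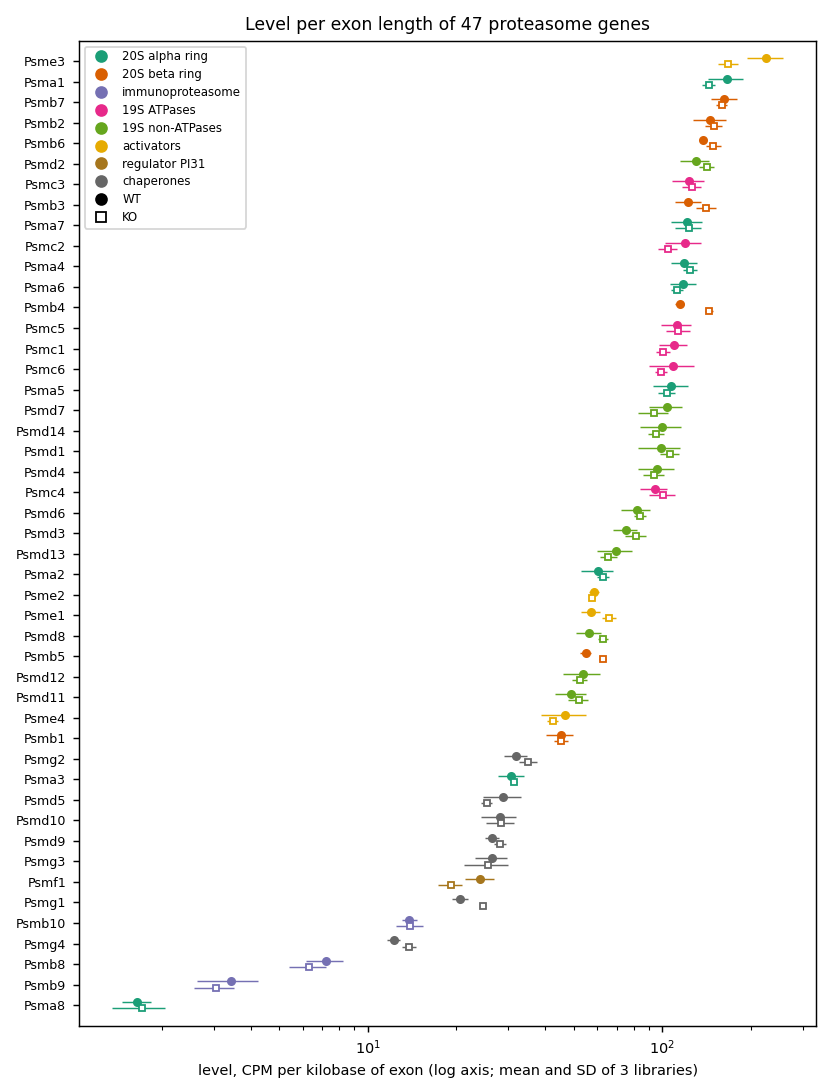
Level per kilobase of exon (x axis, log scale, CPM per kilobase) of each tested member, mean and SD of 3 libraries, with filled circles for WT and open squares for KO, coloured by role and ordered by the WT level. The constitutive core and cap genes share a band from 30.8 to 166 in WT, above the inducible subunits at 3.43 to 13.9.

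Each inducible subunit was set against the constitutive one whose place it takes. Psmb8 was at 13.4, 15.3 and 10.7% of Psmb5 per kilobase in WT and at 8.16, 11.4 and 10.7% in KO. The means were 13.1 ± 2.27% and 10.1 ± 1.72% (n = 3 each; exact two-sided permutation p = 0.2, adjusted p over the 3 ratios = 0.6). Psmb9 was at 2.48 ± 0.59% of Psmb6 in WT and 2.05 ± 0.42% in KO (exact permutation p = 0.4, adjusted 0.6). Psmb10 was at 8.60 ± 1.28% of Psmb7 in WT and 8.74 ± 0.89% in KO (exact permutation p = 0.9, adjusted 0.9). With 3 libraries against 3, the smallest p this test can give is 0.1. The gene counts gave log2 changes of -0.19 for Psmb8 (95% interval -0.60 to 0.22), -0.18 for Psmb9 (-0.74 to 0.38) and 0.01 for Psmb10 (-0.28 to 0.29). Psmb9 had 83 to 194 counts per library and Psmb8 had 237 to 484. Psmb9 also overlaps Tap1 on the other strand, and the strand setting of the counting is not given. Reads from the stretch that the pair shares could therefore not be told apart, and the extent of that stretch was not measured.

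Intron counts, which stand for RNA not yet spliced, were tested for 47 members. edgeR's quasi-likelihood test called 0 of them higher and 0 lower after adjustment, against 0.720% of 11803 genes. Before adjustment, p was under 0.05 for 4 higher and 1 lower, against 10.8% of all genes, and 9 of 47 had groups without overlap, against 17.5%. DESeq2 called 0 members. The median log2 change was 0.05, against 0.02 over all genes. Psmc3, an ATPase, had 138, 141 and 145 intron CPM in WT and 174, 191 and 170.5 in KO, with all KO libraries higher (log2 change 0.34, SE 0.11; adjusted p = 0.310, edgeR). Its gene counts changed by 0.04, and the gene overlaps Slc39a13 on the other strand. Psmd8 introns had 50.3, 61.3 and 51.6 CPM in WT and 76.9, 68.8 and 72.1 CPM in KO, a log2 difference of 0.42 (adjusted p = 0.320, edgeR). Psmb3 and Psmd6 introns changed by 0.37 and 0.36, also without overlap. Psme3 introns had 192, 221 and 121 CPM in WT and 131, 128 and 102 CPM in KO, a log2 change of -0.56 (SE 0.22; adjusted p = 0.417, edgeR) in the same direction as its gene counts but with overlapping libraries. Without WT3 that change was -0.81 with an adjusted p of 0.0456. Introns took 0.319% (Psme1) to 43.0% (Psmg2) of a member's exon plus intron counts in WT, with a median of 10.7%.

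The change of exon counts was then set against that of intron counts in 1 fit. Exon counts are the gene counts again, on fewer genes, and called 0 members, against 2.73% of all genes. DESeq2 called 2 in exon counts (Psmb4 and Psme3), against 9.34% of all genes, and edgeR without the filter on low counts called 1 (Psmb4), against 3.55%. Without WT2 and KO6 it called 5, against 10.2%, and without WT2 alone 6, against 10.5%. The joint fit of exon and intron counts also called 0 of 47 members, and it called 0% of all 11100 genes tested. At an unadjusted p under 0.05 the same edgeR test gave 1 member, Psmb4, against 3.17% of all genes. Psmb4 introns stood at 19.3, 19.1 and 21.1 CPM in WT and 20.4, 18.2 and 19.2 CPM in KO, mixed between the groups. The exon change exceeded the intron change by 0.37 on the log2 scale (SE 0.14), with an unadjusted p of 0.0305 and an adjusted p of 1 by edgeR's quasi-likelihood test.

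**Figure D5:**
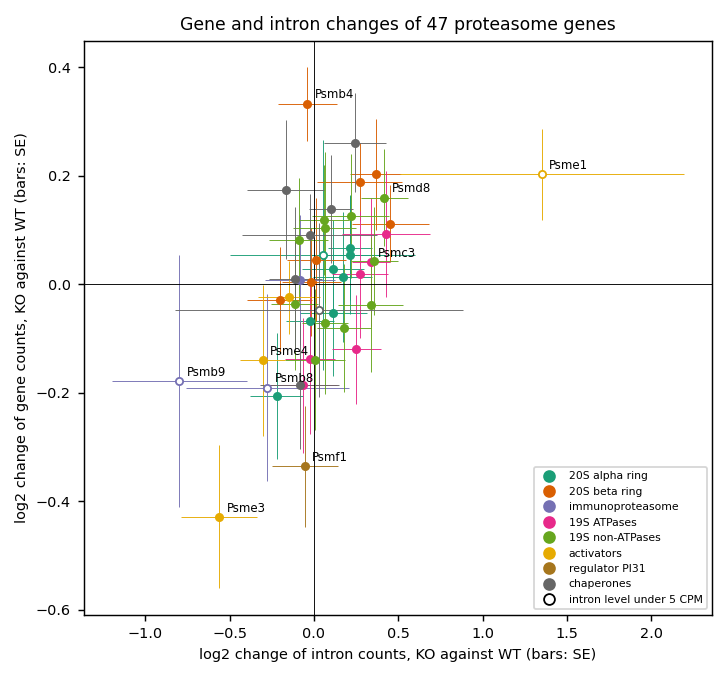
Log2 change of intron counts (x axis) against log2 change of gene counts (y axis), KO against WT, one point per member coloured by role, with bars for the SE and open points where the intron level was under 5 CPM. Psme3 lies low on both axes, and Psmb4 has the highest gene count change with an intron change near 0 (-0.04).

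Proteasome promoters are known to be bound by the CNC factors NRF1 and NRF2 at antioxidant response elements, and by NF-Y at CCAAT boxes. Windows from 250 bases before to 50 after the gene start were found in RefSeq (GRCm38.p6) for 40 of 48 members. TGACNNNGC, the core of the antioxidant element, was present on either strand in 6 of 40 (15%), against 14% of all 27025 genes with a window. The 6 were Psmb5, Psmb6, Psmc6, Psmd12, Psmd9 and Psme4. CCAAT was present on either strand in 14 of 40 (35%), against 41.1% of all genes, while on the plus strand alone the order was the other way, with 12 of 40 (30%) against 23.7%. The 250 bases before the start are shown for Psmb5 (chr14:54617996-54618245, minus strand) and Psmb6 (chr11:70525107-70525356, plus strand), a pair of catalytic subunits with the element close to the start, at -47 and -9. The element is in capitals.
Psmb5: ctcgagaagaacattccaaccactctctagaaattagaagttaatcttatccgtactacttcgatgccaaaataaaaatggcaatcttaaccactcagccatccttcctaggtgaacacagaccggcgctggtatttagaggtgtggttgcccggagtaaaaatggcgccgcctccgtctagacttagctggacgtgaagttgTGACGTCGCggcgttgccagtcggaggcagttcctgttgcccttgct
Psmb6: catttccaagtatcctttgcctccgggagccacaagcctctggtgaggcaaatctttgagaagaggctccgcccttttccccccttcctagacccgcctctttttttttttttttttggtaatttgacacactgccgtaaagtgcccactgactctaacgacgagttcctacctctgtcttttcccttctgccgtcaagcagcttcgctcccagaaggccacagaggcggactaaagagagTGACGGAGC
Their log2 changes were 0.19 and 0.11. The other 4 carriers changed by -0.14 (Psmc6, element at -227), -0.04 (Psmd12, at -247), 0.09 (Psmd9, at -31) and -0.14 (Psme4, at -7). A match is a description of the sequence and not a bound site.

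Of the 14 genes that control proteasome transcription, 0 were called higher and 1 lower, against 1.83% and 1.45% of all genes. All KO libraries lay above all WT libraries for 3 of the 14 and below for 6, against 11.8% and 10.9%. Before adjustment, edgeR's quasi-likelihood test gave p under 0.05 for 2 higher and 7 lower, against 7.77% and 8.78%. The NF-Y genes changed by -0.07 (Nfya, overlapping groups), -0.23 (Nfyb) and -0.45 (Nfyc), and none was called. Mafg, a small MAF protein that pairs with CNC factors on antioxidant elements, fell from 182, 158 and 197 CPM in WT to 118, 111 and 114 CPM in KO. The difference was -0.65 on the log2 scale (SE 0.10, adjusted p = 0.0265, edgeR). Mafg was called in 8 of 13 alternatives, with log2 changes from -0.73 to -0.57. Its partners were not called: Nfe2l1, the factor that renews proteasome genes when the proteasome is inhibited, had 99.3 ± 7.93 and 79.6 ± 2.93 CPM (adjusted p = 0.104, edgeR). Bach1, a repressor at the same elements, had 105 ± 12.1 and 144.1 ± 6.46 CPM (adjusted p = 0.0764, edgeR). Nfe2l2, encoding NRF2, had 121 ± 10 and 140.2 ± 11.1 CPM (adjusted p = 0.321, edgeR).

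Of 12 genes of ubiquitin supply and shuttling, 1 rose and 0 fell, against 1.83% and 1.45% of all genes. All KO libraries lay above all WT libraries for 3 of the 12 and below for 2, against 11.8% and 10.9%. Rad23b, a shuttle that carries ubiquitinated proteins to the proteasome, had 209, 189 and 205 CPM in WT and 297, 308 and 287 CPM in KO, 0.56 more on the log2 scale (SE 0.08; adjusted p = 0.0228, edgeR). Of 6 ubiquitin enzymes abundant in maturing red cells, 2 fell and 0 rose, against 1.45% and 1.83% of all genes. All KO libraries lay below all WT libraries for 3 of the 6 and above for 0, against 10.9% and 11.8%. Trim10, an erythroid ubiquitin ligase, had 1079, 794 and 935 CPM in WT and 483, 525 and 478 CPM in KO. The log2 difference was -0.92 (SE 0.14; adjusted p = 0.0265, edgeR). Ube2l6, a conjugating enzyme for ISG15 and ubiquitin, had 941, 705 and 735 CPM in WT and 442, 519 and 438 CPM in KO, a log2 difference of -0.77 (adjusted p = 0.0496, edgeR). Of the 9 erythroid markers 2 were called lower and 7 had all KO libraries below all WT libraries, against 1.45% and 10.9% of all genes. Their median log2 change was -0.57, and their part in these decreases was not tested. The 4 pathway calls, Mafg, Rad23b, Trim10 and Ube2l6, were all lost without WT1 (edgeR, adjusted p 0.103 to 0.140) and without WT3 (0.109 to 0.157). Leaving out KO4 or KO5 also ended all 4, and leaving out KO6 ended all but that of Rad23b (0.0472). Without the filter on low counts, Ube2l6 alone was lost (0.0624). Over the 13 alternatives the log2 change ran from 0.52 to 0.60 for Rad23b, -1.02 to -0.80 for Trim10 and -0.86 to -0.62 for Ube2l6.

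Of 10 other proteasome parts and assembly factors 0 were called, against 3.28% of all genes, with a median change of -0.02. KO lay wholly above WT for 1 (AI314180, or Ecm29, change 0.24) and wholly below for 1 (Ube3c, -0.32), against 11.8% and 10.9%. At an unadjusted p under 0.05, edgeR's quasi-likelihood test gave 0 higher and 2 lower (Ube3c and Uchl5, -0.36), against 7.77% and 8.78%. Usp14, a ubiquitin-removing enzyme of the 19S cap, had 234 ± 36.1 CPM in WT and 226 ± 15.8 CPM in KO, and Txnl1, a redox protein bound to the cap, had 209 ± 19.1 and 224 ± 9.93 CPM. Of 20 chaperonin and heat shock genes 0 were called, against the same 3.28%, with a median change of 0.10. KO lay wholly above WT for 1 of them (Hspa4, change 0.28) and wholly below for 1 (Dnajb1), against 11.8% and 10.9%. Hspa8, a constitutive HSP70, had 2183 ± 146 and 2044 ± 212 CPM, and Hsp90ab1 had 1944 ± 265 and 2113 ± 254 CPM. Dnajb1, an HSP40 co-chaperone, was at 141 ± 9.60 and 109.9 ± 10.7 CPM, all KO below all WT (adjusted p = 0.126, edgeR). The inducible HSP70 genes set WT1 and KO5 apart. Hspa1a had 24.6, 0.970 and 1.49 CPM in WT and 4.58, 71.9 and 4.97 CPM in KO, and Hspa1b had 48.5, 1.43 and 3.07 CPM in WT and 8.11, 140.4 and 5.62 CPM in KO.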

How the data were processed

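Groups and replicate numbers came from the sample titles. The authors deposited raw counts per gene symbol, in a gene table and in a table of exon and intron counts. Exon counts equalled the gene counts for 15543 of 15543 genes. STAR and HTSeq, with builds NCBIM37 and mm10, are named in the submitters' processing notes. Versions, strand setting and intron definition: not given in the sources used here. The gene table lacks globin and mitochondrial genes, per the file headers and name. Chi-square per degree of freedom between replicates was 16.7 to 157, far above sampling noise, and each library was 1 replicate. Counts were scaled by TMM and tested with edgeR 4.0.16 (quasi-likelihood, filterByExpr at a minimum count of 10, R 4.3.3), all tests two-sided, with Benjamini-Hochberg adjustment. DESeq2 1.42.0 and limma-voom (limma 3.58.1) were alternatives. The script was tested on simulated data, with planted changes larger than the gene count change of any tested member. The simulation held no uneven cell content, so it does not show how well changes of the members' size are recovered. Symbols were matched to GENCODE vM21 (GRCm38) for positions: 29219 by the same and 2224 by an older symbol. The members and lists were chosen with earlier results of these data known. Named genes are the 10 members of lowest p, the catalytic pairs, activators, Psmf1, extremes of level per role, untested members and up to 4 genes per pathway list; others named carry sites, elements or exceptions and were chosen after their values were seen.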

Additional observations from a re-analysis of the deposited data

How the results depend on the processing

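No paired analysis was possible because the WT libraries carry the numbers 1 to 3 and the KO libraries 4 to 6. Against 0 members called higher and 0 lower in gene counts, upper quartile scaling gave 1 and 0, DESeq2 1 and 1, the fit without WT2 and KO6 1 and 3, and the fit with the hepatocyte level as a term 5 and 2. Over all genes, 276 were called higher and 219 lower. Upper quartile scaling gave 424 and 372, DESeq2 655 and 652, the fit without WT2 and KO6 580 and 838, and the hepatocyte term 1278 and 1288. Leaving out 1 library at a time gave 5 to 483 genes higher and 7 to 1012 lower, with most calls without WT2, and 0 to 1 members higher and 0 to 4 lower. The cause was not tested. Exon counts called 1 member higher and 1 lower with DESeq2, 1 higher without the filter on low counts, and 1 higher and 4 lower without WT2 and KO6. Leaving out 1 library gave 0 to 1 members higher and 0 to 5 lower in exon counts, and 0 to 1 lower in intron counts. Over all genes, exon counts called 191 higher and 137 lower, DESeq2 518 and 497, the fit without the filter 267 and 256, without WT2 and KO6 473 and 745, and fits leaving out 1 library 2 to 383 and 0 to 887, with most without WT2. Intron counts called 28 genes higher and 57 lower, DESeq2 123 and 217, the fit without WT2 and KO6 1 and 0, and fits leaving out 1 library 4 to 27 and 6 to 121. For exon against intron, where 0 genes were called, DESeq2 gave 34 higher and 8 lower, the fit without a term per sample 9 higher, and leaving out 1 library 0 to 44 higher and 0 to 106 lower.

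The median change of the members was -0.055 without WT2, -0.022 without KO4 and -0.0060 without KO5. The fitted change of 21 of 47 members took the other sign in at least 1 setting, 13 of them without WT2; the largest of these in the fit of all libraries was 0.10 (Psmd1). Without WT2 and KO6 the change was -0.0077 for Psma3, -0.020 for Psmb1 and 0.019 for Psmg3. Without the filter it was 0.0094 for Psmb7, 0.0018 for Psmd12, 0.00091 for Psmd4 and 0.015 for Psme2, and with the hepatocyte term 0.0052 for Psmd12. Leaving out 1 library, it ran from -0.046 to 0.12 for Psma2, -0.051 to 0.083 for Psma3, -0.014 to 0.12 for Psma4, -0.16 to 0.017 for Psma5, -0.080 to 0.083 for Psma7, -0.14 to 0.15 for Psma8, -0.079 to 0.058 for Psmb1, -0.097 to 0.043 for Psmb10, -0.055 to 0.13 for Psmb2, -0.11 to 0.031 for Psmb7, -0.060 to 0.098 for Psmc3, -0.074 to 0.088 for Psmc5, -0.021 to 0.18 for Psmd1, -0.090 to 0.10 for Psmd10, -0.014 to 0.14 for Psmd11, -0.15 to 0.034 for Psmd12, -0.20 to 0.021 for Psmd14, -0.15 to 0.039 for Psmd4, -0.045 to 0.11 for Psmd6 and -0.18 to 0.066 for Psmg3. The ratio of Psmb10 to Psmb7, KO over WT, ran from 0.947 to 1.10. Counting 8mer sites alone left 1 member with a miR-451a site, 1 with a miR-144-3p site and 0 with a miR-144-5p site. On the plus strand alone, 3 members held TGACNNNGC (7.5%, against 7.29% of all genes) and 12 CCAAT (30%, against 23.7%). Counts were low for Psmb9, Psma8 and the introns of Psmb8, Psmb9 and Psme1.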
